A study of Mus musculus with 22 samples.

Results

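The genes described here are 44 regulators and markers of the cell cycle, read across culture media in 4 mouse embryonic stem cell (ESC) lines. They were chosen by name: 19 act in or before G1 (D- and E-type cyclins, their kinases and inhibitors, the retinoblastoma proteins, E2f1, Myc and Mycn), 10 act in DNA replication, and 15 act in G2 and mitosis. RNA was hybridised to 22 Illumina bead arrays. A gene counted as measured if 2 or more arrays of its design gave one of its probes a detection p under 0.01. On the 16 arrays of lines B18 and B20, 35 of the 44 genes were measured among 9207 genes in all. On the 6 arrays of lines B4 and C17, made on a larger array design, 37 of the 44 were measured among 11003.

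Lines B18 and B20 are C57BL/6 lines, derived in serum-free N2B27 with PD0325901 (PD, which blocks the kinase MEK), SB431542 (SB, an inhibitor of the receptor kinases that Activin, Nodal and TGF-beta act through) and the cytokine LIF. That mixture, called R2i, kept them for more than 10 passages. They were then carried for 10 passages in PD plus LIF or in 2i plus LIF, where 2i is PD with the GSK3 inhibitor CHIR99021. R2i and PD were each read on 3 arrays per line and 2i on 2, and every one of these cultures held PD and LIF. Lines B4 (C57BL/6) and C17 (BALB/c) had 1 array each in R2i, PD and SB, all with LIF by the study's design. For C17 in PD and in SB the cell line field names B4, while the titles and the strain name C17 and BALB/c, and the titles were used. Nothing states that replicate arrays came from separate cultures, so p-values measure the spread between arrays, which may be technical.

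In most cells, mitogen signals raise D-type cyclins, which with Cdk4 and Cdk6 start the phosphorylation of Rb proteins and so free E2F factors to switch on replication genes. Cyclin E with Cdk2 completes that step, and the Cip/Kip and Ink4 inhibitors oppose these kinases. Mouse ESCs are known for a short G1 and high cyclin E activity. Genes for mitosis are transcribed late in the cycle, many of them through a promoter element called the CHR together with upstream CCAAT boxes. A bulk array reads RNA from all cells together, so a difference in a phase marker may come from a different share of cells in that phase or from a different amount of RNA per cell, and these cannot be told apart here.

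The cultures carried the marks of their labels. All 8 ESC markers listed were detected on every array of both sets. Of 8 fibroblast markers, 6 were detected on no array, including Col1a1, Col1a2 and Col3a1, and 1 was detected on every B4 and C17 array. Of 8 primitive endoderm markers, 5 were detected on no B18 or B20 array and 1 on every array of each set. The mean log2 value of that list in B18 and B20 was 4.66 to 4.69 in 2i, 4.79 to 4.91 in R2i and 4.89 to 5.07 in PD. Of 6 neural markers, 3 were detected on no B18 or B20 array and 5 on no B4 or C17 array. The Nodal target Lefty1 was lower in R2i than in PD in B18 and B20 (log2 difference -4.58, adjusted p = 1.045e-13 by limma). Lefty1 was also lower in 2i, which holds no SB, than in PD (-1.15, adjusted p = 9.378e-06). The Wnt target Axin2 was higher in 2i than in PD (0.68, adjusted p = 3.466e-04). In B20 alone that Axin2 difference did not pass (0.46, adjusted p = 0.0674). Probes detected made up 42.1 to 45.4% per array in B18 and B20 and 30.0 to 31.7% in B4 and C17. All B18 arrays lay on one chip and all B20 arrays on another, so line and chip cannot be told apart. Nor can the media be told apart from their places on the chips, which were the same for both lines.

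The sequences below are promoters of 5 of the 6 mitotic genes that differed between 2i and the other media (Cdc25c is named only), shown for promoter elements that the choice of these genes did not use. Each window runs from 250 bases before to 50 after the RefSeq start of transcription, so it ends in the 5′ part of the gene, and is written 5′ to 3′ on the gene's strand in build GRCm38.p6. Capitals mark the letters TTTGAA (the CHR) and CCAAT, each searched on both strands, so that ATTGG is CCAAT on the other strand. Cdc20 lies at chr4:118437294-118437593 (minus strand), Plk1 at chr7:122159185-122159484 (plus strand), Aurka at chr2:172370521-172370820 (minus strand), Ccnb1 at chr13:100786437-100786736 (minus strand) and Bub1b at chr2:118597961-118598260 (plus strand).
Cdc20: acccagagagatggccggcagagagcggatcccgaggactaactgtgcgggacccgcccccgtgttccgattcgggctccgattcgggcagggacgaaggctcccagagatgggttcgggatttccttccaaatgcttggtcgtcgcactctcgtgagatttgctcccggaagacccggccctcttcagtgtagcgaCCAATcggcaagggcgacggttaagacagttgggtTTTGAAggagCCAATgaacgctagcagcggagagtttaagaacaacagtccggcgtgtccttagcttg
Plk1: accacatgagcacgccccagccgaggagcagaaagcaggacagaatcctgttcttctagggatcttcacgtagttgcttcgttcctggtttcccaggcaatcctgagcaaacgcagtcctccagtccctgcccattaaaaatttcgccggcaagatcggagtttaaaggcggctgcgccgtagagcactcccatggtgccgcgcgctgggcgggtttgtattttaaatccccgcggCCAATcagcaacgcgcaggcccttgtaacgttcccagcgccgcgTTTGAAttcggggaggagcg
Aurka: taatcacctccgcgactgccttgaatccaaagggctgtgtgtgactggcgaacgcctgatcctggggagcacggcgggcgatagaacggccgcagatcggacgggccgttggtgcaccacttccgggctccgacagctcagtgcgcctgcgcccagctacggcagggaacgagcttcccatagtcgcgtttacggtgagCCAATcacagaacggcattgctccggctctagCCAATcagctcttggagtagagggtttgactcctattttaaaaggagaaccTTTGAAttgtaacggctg
Ccnb1: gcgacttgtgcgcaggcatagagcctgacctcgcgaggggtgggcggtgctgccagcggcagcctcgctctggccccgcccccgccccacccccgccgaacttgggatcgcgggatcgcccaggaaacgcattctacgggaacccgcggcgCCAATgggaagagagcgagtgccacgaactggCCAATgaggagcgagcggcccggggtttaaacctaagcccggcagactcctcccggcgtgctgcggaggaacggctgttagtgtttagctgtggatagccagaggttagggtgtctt
Bub1b: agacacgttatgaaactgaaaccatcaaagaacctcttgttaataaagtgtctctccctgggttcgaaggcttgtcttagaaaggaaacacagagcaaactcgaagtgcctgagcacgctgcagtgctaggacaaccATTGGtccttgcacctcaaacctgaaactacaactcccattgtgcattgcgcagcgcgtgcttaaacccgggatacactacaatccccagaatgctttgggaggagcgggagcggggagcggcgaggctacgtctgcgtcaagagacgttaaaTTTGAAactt

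In Cdc20 the CHR begins 18 bases before the start, between CCAAT boxes that begin 53 and 8 bases before it. In Plk1 and Aurka the CHR begins 30 and 32 bases after the annotated start, and the nearest CCAAT box begins 14 and 19 bases before it. Ccnb1 has CCAAT boxes 99 and 67 bases before the start and no TTTGAA in this window. Promoters were given for 34 of the 44 genes. Both TTTGAA and CCAAT occurred in 7 of the 12 mitotic genes with a promoter (Aurka, Bub1b, Ccnb2, Cdc20, Mki67, Plk1 and Top2a), in 1 of 8 replication genes and in 0 of 14 G1 genes. Over all 32851 promoter windows of the same length, 6.95% held both, 17.9% held TTTGAA and 37.4% held CCAAT. The E2F-type letters TTTCCCGC, TTTGGCGC, TTTCGCGC or TTTGCCGC on either strand occurred in 6 of 8 replication genes, in 5 of 14 G1 genes and in 0 of 12 mitotic genes, against 2.27% of all windows. Members were counted as genes, with the letters in any window of the gene, while the shares over all are of single windows. Some G1 and replication genes had more windows than others, so the units differ. These counts describe letters in a window and not binding. With all arrays kept, Top2a, which has both elements, passed the test in no comparison of media. Ccnb1, without TTTGAA here, passed in 2 over both lines. Only the exact letters TTTGAA were searched, so another form of the CHR in this window would be missed. Whether these elements bear on the differences between media was not tested.

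Of 11 mitotic genes measured in B18 and B20, 6 were lower in 2i than in either medium without CHIR, on the average of both lines. In R2i against 2i, 6 of the 11 were higher in R2i and none lower, when 14.2% of all genes were higher and 13.4% lower. In 2i against PD, 6 of 11 were lower in 2i and none higher, when 12.2% of all genes were lower and 11.4% higher. Both comparisons use the same 4 arrays of 2i, so they are not independent of each other. In R2i against PD, which sets aside 2i, 1 of 11 was higher and none lower, with 9.24% of all genes higher and 9.57% lower. The median log2 difference of the 11 genes was 0.30 in R2i against 2i and -0.25 in 2i against PD, beside 0.01 and -0.01 over all genes. Values are log2 normalized intensities, on which probes at background read about 4.2 to 4.9. Tests are limma's, with Benjamini-Hochberg adjustment over all genes, and a gene is called changed at an adjusted p below 0.05.

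Cdc20, the activator of the anaphase-promoting complex that starts chromosome separation, moved most among the mitotic genes. In B18 its 3 PD arrays read 11.68, 11.50 and 11.61, its R2i arrays 11.86, 11.89 and 11.90, and its 2i arrays 10.89 and 10.87. In B20 the PD arrays read 11.60, 11.57 and 11.69, the R2i arrays 11.56, 11.62 and 11.57, and the 2i arrays 10.72 and 10.96. Every 2i array of both lines lay below every PD and R2i array. Cdc20 was 1.83-fold higher in R2i than in 2i (log2 difference 0.87 ± 0.07 SE, adjusted p = 6.977e-08) and 1.68-fold lower in 2i than in PD (-0.75 ± 0.07, adjusted p = 6.178e-07). All 4 Cdc20 probes gave the same picture, from 0.87 to 1.11 in R2i against 2i and from -0.93 to -0.75 in 2i against PD.

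Plk1, the kinase that drives mitotic entry and spindle assembly, read 11.00, 10.91 and 11.07 in PD, 11.06, 11.14 and 11.04 in R2i, and 10.54 and 10.42 in 2i in B18. In B20 it read 10.83, 10.93 and 10.87 in PD, 10.93, 10.74 and 10.79 in R2i, and 10.24 and 10.32 in 2i. The 2i arrays did not overlap those of the other media in either line. Plk1 was 1.49-fold higher in R2i than in 2i (0.57 ± 0.07, adjusted p = 6.672e-06) and 1.47-fold lower in 2i than in PD (-0.56 ± 0.07, adjusted p = 1.263e-05).

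Aurka, the centrosomal kinase that matures spindle poles, followed with the same separation of 2i. Its B18 arrays read 10.14, 10.34 and 10.28 in PD, 10.34, 10.44 and 10.36 in R2i, and 9.82 and 9.62 in 2i. Its B20 arrays read 10.39, 10.38 and 10.31 in PD, 10.44, 10.18 and 10.36 in R2i, and 9.76 and 9.99 in 2i. The difference was 0.55 ± 0.08 in R2i against 2i (adjusted p = 3.942e-05) and -0.51 ± 0.08 in 2i against PD (adjusted p = 1.231e-04).

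Ccnb1, cyclin B1, the partner of Cdk1 at mitotic entry, read 11.29, 11.44 and 11.32 in PD, 11.40, 11.45 and 11.28 in R2i, and 10.90 and 11.01 in 2i in B18. In B20 it read 11.45, 11.42 and 11.40 in PD, 11.48, 11.23 and 11.42 in R2i, and 11.12 and 11.17 in 2i. All 4 arrays of 2i again lay below the other 12, by smaller steps. The differences were 0.33 ± 0.07 in R2i against 2i (adjusted p = 0.00207) and -0.34 ± 0.07 in 2i against PD (adjusted p = 0.00203), and a second probe passed in both.

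Bub1b and Cdc25c completed the 6. Bub1b, the spindle checkpoint kinase BubR1, was 0.30 ± 0.08 higher in R2i than in 2i (adjusted p = 0.00748) and differed by -0.25 ± 0.08 in 2i against PD (adjusted p = 0.0276). Its call in 2i against PD was lost without B18 PD replicate 3, without either B18 2i array, without B20 PD replicate 1 or without B20 2i replicate 1, at adjusted p up to 0.122. Cdc25c, the phosphatase that activates Cdk1, was 0.47 ± 0.07 higher in R2i than in 2i (adjusted p = 9.321e-05). In 2i against PD it differed by -0.26 ± 0.07 (adjusted p = 0.0128), from -0.07 in B18, where these media overlapped, and -0.45 in B20. That call was lost without B18 2i replicate 2 or B20 2i replicate 2 and with the mean of the gene's probes. The call was also absent at the second Cdc25c probe (-0.12, adjusted p = 0.390).

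With all arrays kept, the other mitotic genes measured stayed under the threshold in all 3 comparisons of B18 and B20. Ccna2, cyclin A2, differed by -0.08 ± 0.09 in both R2i against 2i and 2i against PD. Its arrays ran from 5.78 to 6.43. Top2a, the topoisomerase that untangles sister chromatids, differed by 0.08 ± 0.10 and -0.03 ± 0.10. Its B18 2i arrays lay apart, at 11.20 and 10.56. In R2i against 2i the B18 difference of Top2a was 0.24, and 0.57 without B18 2i replicate 1. Mad2l1, Birc5 (survivin) and Cdc25b had absolute differences of at most 0.14 in these 2 comparisons with all arrays kept. Without B20 2i replicate 2, Mad2l1 differed by -0.26 in 2i against PD. Cdc25b was detected on only 4 of the 16 arrays, while the other 34 genes measured were detected on all 16. Bub1 and Ccnb2 were detected on none, at 4.21 to 4.53, and Mki67 and Aurkb had no probe on this array.

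**Figure D1:**
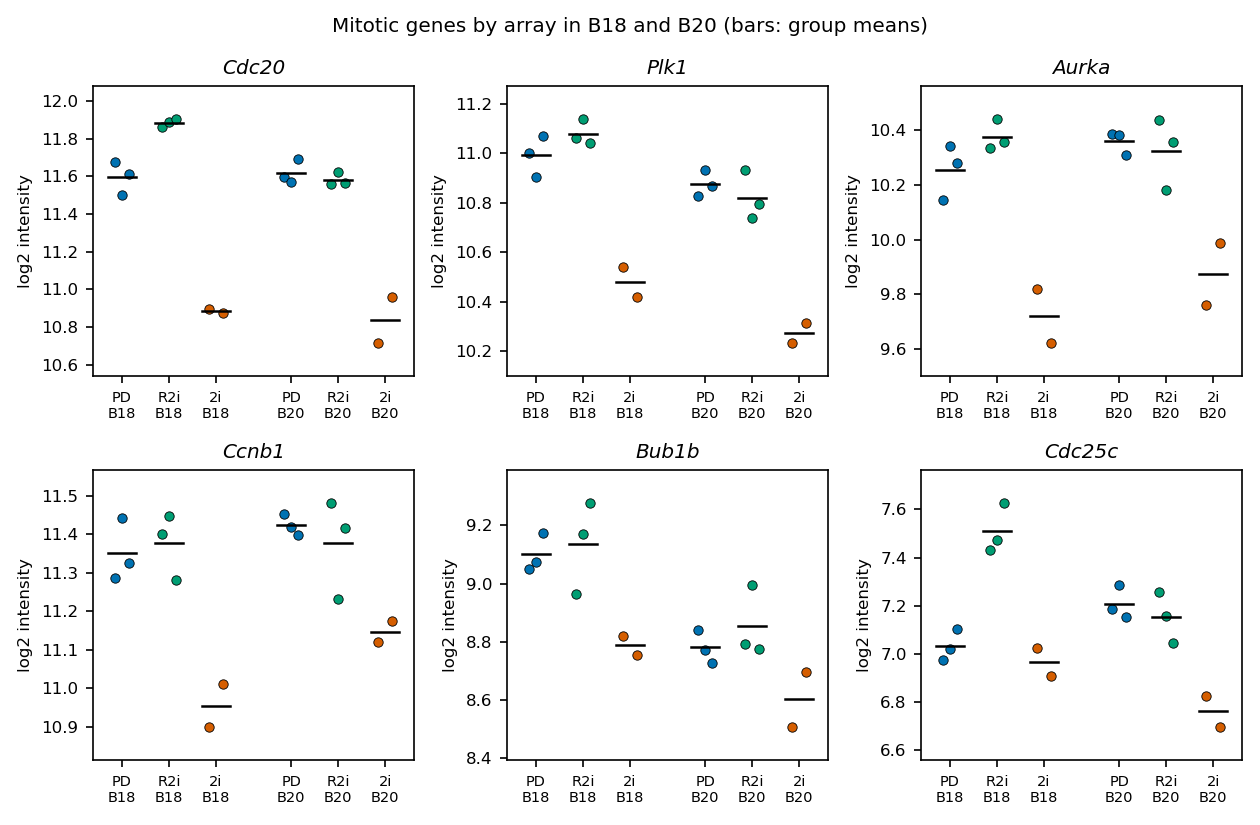
Log2 normalized intensity (vertical axes, scaled per gene) of 6 mitotic genes on each B18 and B20 array, grouped by medium and line; points are arrays and bars are group means. For Cdc20, Plk1, Aurka and Ccnb1 all 4 arrays of 2i lie below the 12 arrays of PD and R2i, with Cdc20 at 10.72 to 10.96 in 2i.

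Cdc20, Plk1 and Aurka were called lower in 2i in each line alone. In R2i against 2i, 6 of 11 were called higher in B18 alone and 4 of 11 in B20 alone (Cdc20, Cdc25c, Plk1 and Aurka). Over all phases 8 of 35 genes were higher and 1 lower in B18 alone, when 9.58% of all genes were higher and 8.42% lower. In B20 alone 5 were higher and 3 lower, when 7.56% of all genes were higher and 7.75% lower. In 2i against PD, 4 of 11 were called lower in each line: Cdc20, Plk1 and Aurka in both, Ccnb1 in B18 and Cdc25c in B20. Some of these calls rested on 1 array. Aurka lost both B20 calls without B20 2i replicate 1 (adjusted p up to 0.138) and its B18 call in 2i against PD without B18 2i replicate 2 (0.0600). Ccnb1 lost both B18 calls without B18 2i replicate 1 (adjusted p up to 0.0919). Bub1b, called in B18 in R2i against 2i, lost that without R2i replicate 2 or 3 or either 2i array and with the replicate block (adjusted p up to 0.201). Cdc25c lost both B20 calls without B20 2i replicate 2, and the R2i against 2i call also with median scaling and without B20 R2i replicate 1 (adjusted p up to 0.0942). Over all phases 1 of 35 genes was higher and 6 lower in B18 alone (7.18% and 8.63% of all genes), and 3 were higher and 5 lower in B20 alone (7.20% and 6.58%). Cdc20 differed by -0.71 in B18 and -0.78 in B20 in 2i against PD, and Plk1 by -0.51 and -0.60. The difference between the lines passed for none of the 35 genes in R2i against 2i, when 1.35% of all genes passed, or in 2i against PD, when 1.72% did. At an unadjusted p below 0.05, 3 and 6 of the 35 differed between the lines, and the share of all genes at that level was not counted.

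**Figure D2:**
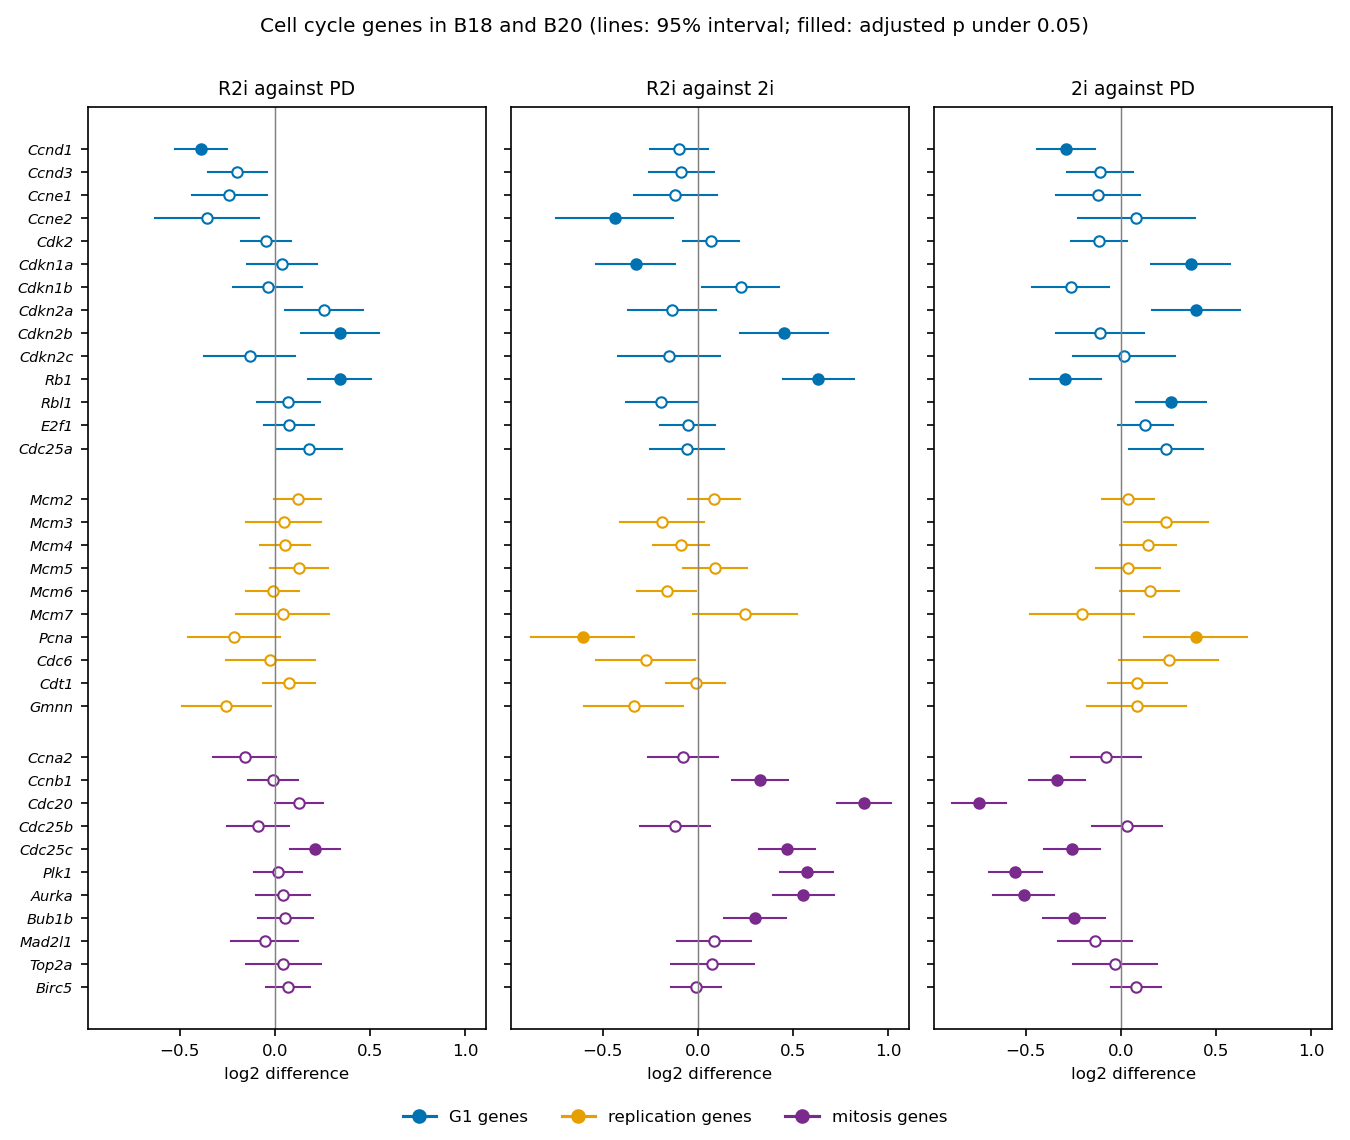
Log2 difference (horizontal axes, shared scale) of the 35 genes measured in B18 and B20 in each comparison of media, by phase; lines are 95% intervals and filled points have an adjusted p below 0.05. The filled mitotic points lie right of 0 in R2i against 2i and left of 0 in 2i against PD, with Cdc20 at 0.87 and -0.75.

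The G1 regulators that passed did so in both directions. Of 14 measured in B18 and B20, 2 were higher and 1 lower in R2i against PD, 2 higher and 2 lower in R2i against 2i, and 3 higher and 2 lower in 2i against PD. The shares of all genes higher and lower were 9.24% and 9.57%, 14.2% and 13.4%, and 11.4% and 12.2%. Their median log2 difference was 0.00 in R2i against PD, -0.09 in R2i against 2i and -0.05 in 2i against PD. Of the D- and E-type cyclins, Ccnd1 and Ccne2 passed in any of these and Ccnd3 and Ccne1 did not. Ccnd2, Cdk6, Myc and Mycn were detected on no B18 or B20 array, at 4.22 to 4.86, and Cdk4 had no probe there.

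Ccnd1, cyclin D1, a target of both ERK and Wnt signalling in many cells, was lower in R2i than in PD (-0.39 ± 0.06, adjusted p = 4.170e-04), with the 2 lines unlike each other. The B18 arrays read 10.43, 10.41 and 10.50 in PD, 9.79, 9.64 and 9.84 in R2i, and 9.98 and 10.02 in 2i. The B20 arrays read 10.31, 10.29 and 10.47 in PD, 10.24, 10.41 and 10.16 in R2i, and 10.29 and 10.16 in 2i. In B18 the PD arrays lay above all arrays of the other media, while in B20 the media overlapped. The R2i against PD difference was -0.69 ± 0.09 in B18 (adjusted p = 6.529e-05) and -0.09 in B20, and the difference between the lines passed (0.60 ± 0.13, adjusted p = 0.0166), when 4.26% of all genes did. In 2i against PD, Ccnd1 differed by -0.29 ± 0.07 (adjusted p = 0.00775), with -0.45 in B18 and -0.13 in B20. The B18 call in 2i against PD was lost without B18 2i replicate 1 (adjusted p = 0.0502). All 3 Ccnd1 probes passed in R2i against PD, from -0.51 to -0.39.

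Ccne2, cyclin E2, a partner of Cdk2, read 6.03, 6.42 and 6.38 in PD, 5.97, 5.52 and 5.36 in R2i, and 5.58 and 6.18 in 2i in B18. The B20 arrays read 6.34, 6.21 and 6.67 in PD, 6.45, 6.06 and 6.54 in R2i, and 6.95 and 6.97 in 2i. R2i lay below PD in B18, while 2i lay above the other media in B20. It was lower in R2i than in 2i (-0.44 ± 0.15, adjusted p = 0.0338), a call lost with no detection filter and without B18 R2i replicate 2 or 3, B18 2i replicate 2, B20 R2i replicate 2 or either B20 2i array (adjusted p up to 0.203, log2 difference down to -0.29). In B18 alone it was lower in R2i than in PD (-0.66 ± 0.18, adjusted p = 0.0231), a call lost with no detection filter and without R2i replicate 2 or 3 or PD replicate 2 or 3 (adjusted p up to 0.105).

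With the main choices of processing, the remaining cyclins passed in no comparison of both lines. Ccne1, cyclin E1, read 7.15, 7.32 and 7.26 in PD, 7.02, 7.06 and 6.89 in R2i, and 6.85 and 7.21 in 2i in B18, and from 6.51 to 7.09 over the B20 arrays. Its R2i against PD difference was -0.24 ± 0.09 (adjusted p = 0.0850), and it passed with median scaling (-0.30) and without B20 PD replicate 1 (-0.32). Ccnd3, cyclin D3, read 10.56 to 10.77 over the B18 arrays. The B20 values were 10.64, 10.53 and 10.38 in PD, 10.09, 10.09 and 10.14 in R2i, and 10.64 and 10.20 in 2i, so R2i lay below PD there. Over both lines Ccnd3 differed by -0.20 in R2i against PD, under the threshold. That difference passed with no background correction, median scaling, offset 50, an intensity trend or only the compared media. It also passed without B20 PD replicate 3 or without either B20 2i array, although 2i is not in this comparison. In B20 alone Ccnd3 was lower in R2i than in PD (-0.41 ± 0.10, adjusted p = 0.0179), a call lost without R2i replicate 1 or 2 or PD replicate 1 or 2 and with the mean of its probes (adjusted p up to 0.0908).

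Rb1, the retinoblastoma protein that holds E2F factors in check, was highest in R2i. The B18 arrays read 7.51, 7.57 and 7.43 in PD, 7.63, 7.88 and 7.66 in R2i, and 6.93 and 6.80 in 2i. The B20 arrays read 6.69, 6.69 and 7.08 in PD, 7.39, 7.26 and 7.18 in R2i, and 6.93 and 6.82 in 2i. In each line every R2i array lay above every array of the other media. Rb1 was 1.55-fold higher in R2i than in 2i (0.63 ± 0.09, adjusted p = 4.368e-05) and 1.27-fold higher in R2i than in PD (0.34 ± 0.08, adjusted p = 0.00551), and both of its probes passed in each. In 2i against PD the mean difference was -0.29 ± 0.09 (adjusted p = 0.0224), from -0.64 in B18 and 0.06 in B20. That call was lost without B18 2i replicate 2 or B20 2i replicate 2 (adjusted p up to 0.0889) and at the second probe (-0.19, adjusted p = 0.110). Its relative Rbl1 (p107) was higher in 2i than in PD (0.26 ± 0.09, adjusted p = 0.0385), and 11 of 26 alternatives lost that call. They included leaving out B18 PD replicate 1, B20 PD replicate 1 or 3, or any of the 4 arrays of 2i (adjusted p up to 0.188).

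Among the inhibitors, Cdkn1a (p21, a broad inhibitor of cyclin-dependent kinases) was higher in 2i. It read 8.99, 9.01 and 9.05 in PD, 9.10, 8.98 and 9.17 in R2i, and 9.24 and 9.27 in 2i in B18. The arrays of B20 read 8.81, 8.90 and 8.92 in PD, 9.02, 8.86 and 8.80 in R2i, and 9.70 and 9.05 in 2i. The 2i arrays lay above the others in each line, with B20 2i replicate 1 at 9.70 far above its partner. The other Cdkn1a probes passed in 2i against PD, at 0.30 and 0.35. In R2i against 2i those probes stayed under the threshold, at -0.23 (adjusted p = 0.119) and -0.24 (adjusted p = 0.0904). The probe shown differed by 0.37 ± 0.10 in 2i against PD (adjusted p = 0.0116) and by -0.33 ± 0.10 in R2i against 2i (adjusted p = 0.0193). Without B20 2i replicate 1 neither passed (0.20, adjusted p = 0.0713, and -0.17, adjusted p = 0.134), and the second was also lost without B18 2i replicate 2.

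Cdkn2b (p15, an Ink4 inhibitor of Cdk4 and Cdk6 that TGF-beta induces in many cells) was higher in R2i. It read 5.87, 5.51 and 5.55 in PD, 6.22, 6.04 and 6.23 in R2i, and 5.31 and 5.87 in 2i in B18. Line B20 gave 5.42, 5.81 and 5.61 in PD, 5.83, 5.83 and 5.68 in R2i, and 5.41 and 5.49 in 2i. R2i stood clear of the other media in B18 and overlapped PD in B20. Cdkn2b differed by 0.45 ± 0.11 in R2i against 2i (adjusted p = 0.00536) and by 0.34 ± 0.10 in R2i against PD (adjusted p = 0.0209). The second was lost without B18 PD replicate 2, B18 PD replicate 3 or B20 PD replicate 1 (adjusted p up to 0.0592).

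Cdkn2a, which encodes p16 and p19Arf, read 6.55, 6.48 and 6.38 in PD, 6.86, 6.83 and 6.87 in R2i, and 7.20 and 6.80 in 2i in B18. Its B20 arrays read 6.73, 6.88 and 6.56 in PD, 6.75, 6.63 and 7.17 in R2i, and 7.11 and 6.84 in 2i. PD lay below the other media in B18 and overlapped them in B20. Cdkn2a was higher in 2i than in PD (0.39 ± 0.11, adjusted p = 0.0148), a call lost without B18 2i replicate 1 or B20 2i replicate 1 (adjusted p up to 0.0902). In B18 alone the difference was 0.53 (adjusted p = 0.0270), lost in 6 of 25 alternatives. Cdkn1b (p27, a Cip/Kip inhibitor) read 5.85, 5.65 and 5.99 in PD, 5.99, 5.82 and 6.19 in R2i, and 5.76 and 5.84 in 2i in B18. On the B20 arrays it read 5.96, 6.18 and 5.90 in PD, 5.88, 5.58 and 5.85 in R2i, and 5.61 and 5.42 in 2i. PD and 2i separated in B20, where it was called lower in 2i (-0.50 ± 0.14, adjusted p = 0.0217), but not in B18. The B20 call was lost without PD replicate 2 or 2i replicate 2 (adjusted p up to 0.151) and with no background correction (-0.17). Cdkn2c, Cdk2 and the phosphatase Cdc25a passed in no comparison of both lines, within 0.24 of 0.

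E2f1, the factor that switches on replication genes, stayed under the threshold in every comparison of media. It read 9.69, 9.78 and 9.80 in PD, 9.64, 9.70 and 9.68 in R2i, and 9.89 and 9.71 in 2i in B18. In line B20 the values were 9.79, 9.77 and 9.73 in PD, 9.86, 10.03 and 10.10 in R2i, and 10.04 and 9.91 in 2i. PD lay below the other media in B20, while PD and R2i overlapped in B18. In R2i against PD, E2f1 differed by -0.09 in B18 and 0.24 in B20. The B20 difference passed with no background correction (0.21, adjusted p = 0.0338). Over both lines its differences were 0.08, -0.05 and 0.13 in R2i against PD, R2i against 2i and 2i against PD. None passed the threshold, and the 95% intervals kept within 0.27 of 0.

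**Figure D3:**
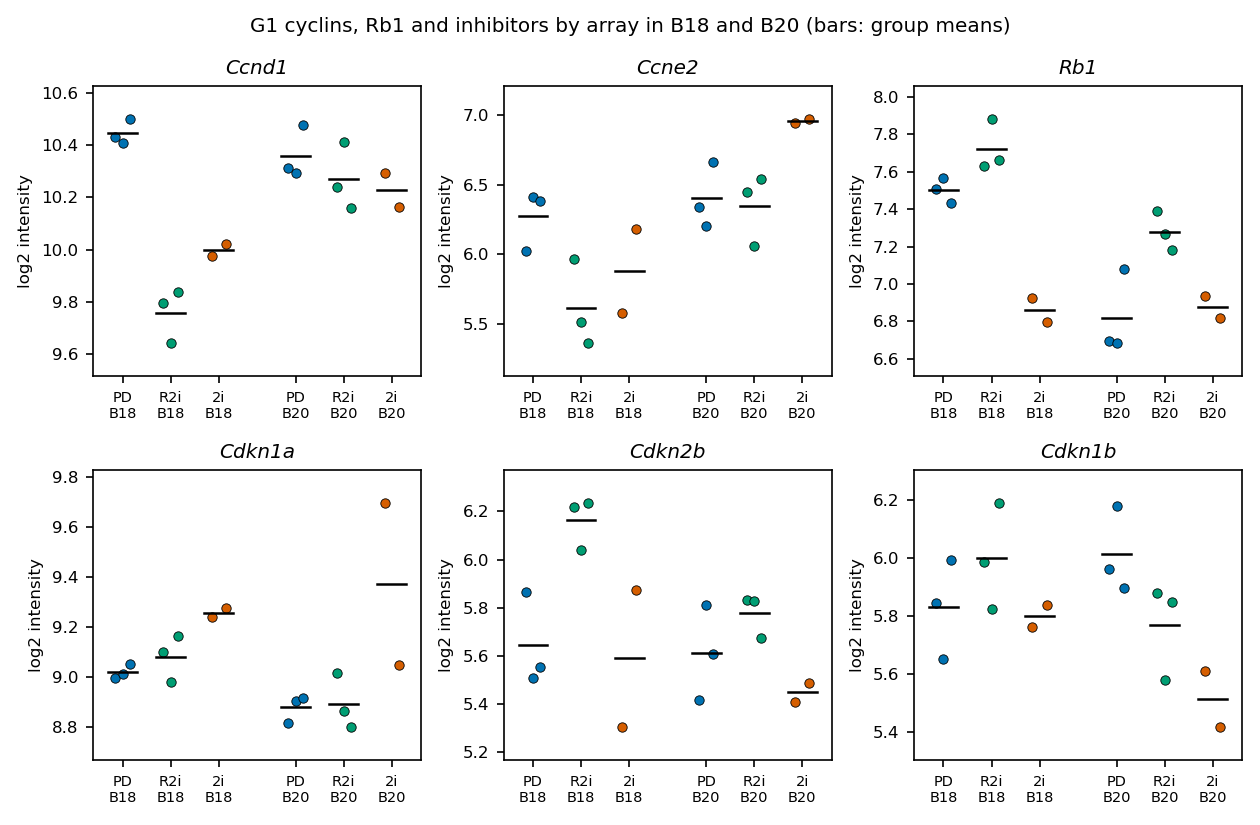
Log2 normalized intensity (vertical axes, scaled per gene) of 6 G1 genes on each B18 and B20 array, by medium and line; points are arrays and bars are group means. Ccnd1 falls in R2i in B18 (9.64 to 9.84) but not in B20, Rb1 is highest in R2i in each line, and 1 array sets the B20 mean of Cdkn1a in 2i.

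Few replication genes of the 44 passed. Of 10 measured in B18 and B20, none passed in R2i against PD, when 9.24% of all genes were higher and 9.57% lower. In R2i against 2i, 1 was lower and none higher, when 13.4% of all genes were lower and 14.2% higher. In 2i against PD, 1 was higher and none lower, when 11.4% of all genes were higher and 12.2% lower. In each direction the members' share was no larger than that of all genes. At an unadjusted p below 0.05 there were 1, 4 and 2 of the 10 in R2i against PD, R2i against 2i and 2i against PD. The share of all genes at that level was not counted, so these counts have no background beside them. Of the 10, 9 lay above 0 in 2i against PD, with a median of 0.11, when 48.7% of all genes did, with a median of -0.01. In B20 alone Mcm4 was called higher in 2i than in PD (0.31, adjusted p = 0.0460), a call lost in 14 of 25 alternatives (adjusted p up to 0.222). The minichromosome maintenance genes Mcm2 to Mcm7, which encode the helicase that unwinds origins, had differences from -0.21 to 0.25 over the 3 comparisons. The licensing factors Cdc6 and Cdt1 had differences within 0.28 of 0. Gmnn, geminin, the inhibitor of Cdt1, differed by -0.34 ± 0.12 in R2i against 2i (adjusted p = 0.0516). Without B18 2i replicate 1 that difference was -0.55 (adjusted p = 3.618e-04), and it also passed with offset 50, with detection on every array, with an intensity trend, with the replicate block and without B18 PD replicate 2.

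Pcna, the sliding clamp of the replicative polymerases, was higher in 2i than in R2i. It read 8.14, 8.49 and 8.38 in PD, 7.71, 8.24 and 7.73 in R2i, and 8.39 and 8.57 in 2i in B18. The same gene in B20 read 8.0, 7.93 and 8.49 in PD, 8.37, 8.13 and 7.97 in R2i, and 8.73 and 8.83 in 2i. R2i and 2i did not overlap in either line, while PD overlapped R2i in both. Pcna was 1.52-fold lower in R2i than in 2i (-0.61 ± 0.13, adjusted p = 0.00207), with -0.59 in B18 and -0.62 in B20. Its difference of 0.39 ± 0.13 in 2i against PD (adjusted p = 0.0356) was lost in 9 of 26 alternatives. They included leaving out B18 PD replicate 1 or 3, B18 2i replicate 2, B20 PD replicate 1 or 2, or either B20 2i array (adjusted p up to 0.121).

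**Figure D4:**
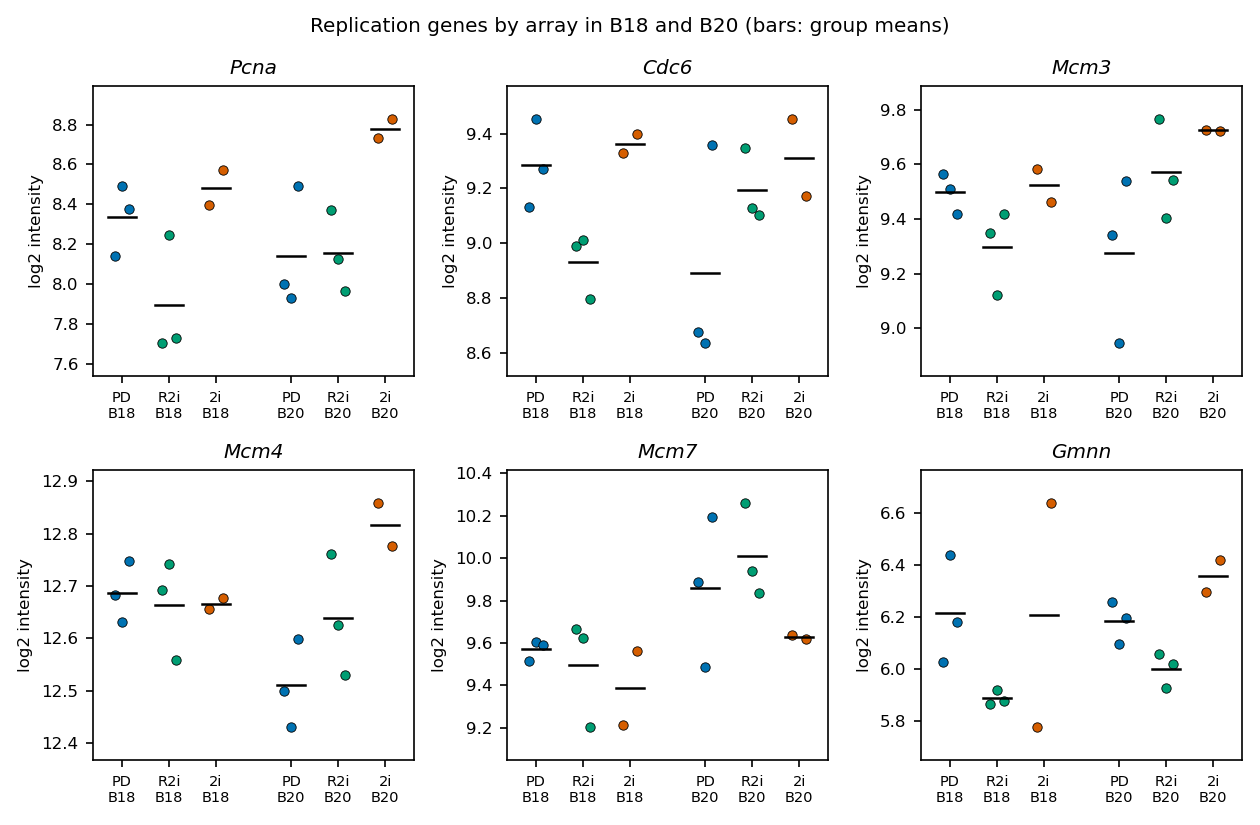
Log2 normalized intensity (vertical axes, scaled per gene) of 6 replication genes on each B18 and B20 array, by medium and line; points are arrays and bars are group means. Pcna is higher in 2i than in R2i in both lines (8.39 to 8.83 against 7.71 to 8.37), and the third PD array of B20 reads above the other PD arrays of that line for Pcna, Cdc6, Mcm3 and Mcm7.

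Adding SB to PD, the R2i against PD comparison, gave 3 of the 35 genes higher and 1 lower, when 9.24% of all genes were higher and 9.57% lower. The members' share was no larger than that background. Rb1, Cdkn2b and Cdc25c were higher in R2i and Ccnd1 lower. With median scaling in place of quantile normalization, 2 were higher and 4 lower, and in 2i against PD 4 higher and 8 lower became 2 and 9. Among all genes called, median scaling gave 558 of 1634 as higher in R2i against PD, where quantile normalization gave 851 of 1732, and 702 of 2184 as higher in 2i against PD, where it gave 1051 of 2177. Cdc25c differed by 0.21 ± 0.06 (adjusted p = 0.0262), a call lost with median scaling and without B18 R2i replicate 3, B18 PD replicate 1 or 2, B20 R2i replicate 1 or 2 or B20 PD replicate 1 (adjusted p up to 0.212). In B18 alone 3 of 35 were higher and 2 lower, when 7.44% of all genes were higher and 7.67% lower. In B20 alone 1 was higher and 1 lower, when 4.42% of all genes were higher and 4.83% lower. Cdc25c read 6.98, 7.02 and 7.10 in PD and 7.43, 7.47 and 7.63 in R2i in B18, where the groups stood apart, and its 2i arrays there read 7.02 and 6.91. For B20 the arrays gave 7.19, 7.28 and 7.16 in PD and 7.26, 7.16 and 7.05 in R2i, which overlapped, and 6.82 and 6.70 in 2i, below both. Its difference was 0.48 ± 0.09 in B18 and -0.06 in B20, and the difference between the lines passed (-0.53 ± 0.13, adjusted p = 0.0256). That call was lost without B18 R2i replicate 3, B18 PD replicate 1 or 2, B20 R2i replicate 2 or 3 or B20 PD replicate 1 or 2 (adjusted p up to 0.0695). The line difference in the R2i against PD effect (B20 minus B18) was above 0 for all 10 replication genes, with a median of 0.19, and below 0 for 10 of 11 mitotic genes, with a median of -0.16. Over all genes it was above 0 for 51.3%, with a median of 0.01.

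Other cell cycle genes, listed with these results in view and apart from the 44, were counted by phase. In R2i against 2i, 17 of 48 other mitotic genes were higher in R2i and 2 lower, when 14.2% of all genes were higher and 13.4% lower. Kif23, a cytokinesis kinesin, differed by 0.69, Ndc80, of the outer kinetochore, by 0.54 and Bub3, of the spindle checkpoint, by 0.53. In 2i against PD, which shares the 2i arrays, 15 of 48 were lower in 2i and none higher, when 12.2% and 11.4% of all genes were, among them Ccnf (cyclin F) at -0.77, Kif23 at -0.67 and Bub3 at -0.58. Of 38 other replication genes, 13 were lower and 1 higher in R2i against 2i, and 12 were higher and 1 lower in 2i against PD. The primase subunit Prim1 differed by -0.47 and 0.52, and the thymidine kinase Tk1 by -0.68 and 0.50. Dbf4, the activating subunit of the kinase Cdc7, was the replication gene that went the other way in R2i against 2i (0.47), while Cdc7 itself differed by 0.46 in 2i against PD.

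Of 25 other G1 genes, 8 were higher and 2 lower in R2i against 2i, when 14.2% of all genes were higher and 13.4% lower. In 2i against PD, 3 were higher and 6 lower, when 11.4% of all genes were higher and 12.2% lower. Cdkn1c (p57, an imprinted inhibitor of cyclin-dependent kinases) was higher in R2i, by 1.39 against 2i and by 1.00 against PD. Tfdp2, a partner of E2F factors, differed by 0.81 in R2i against 2i and by -0.75 in 2i against PD, and E2f2 by -0.67 in R2i against 2i. Mycl, of the Myc family, differed by -0.91 and Gadd45a, a stress-response gene, by -0.58 in 2i against PD. In R2i against PD, 3 of the 25 other G1 genes were higher and 3 lower, near the 9.24% and 9.57% of all genes, among them Gadd45g at 0.83 and Mycl at -0.46. There 1 of 38 replication genes passed (Tyms, thymidylate synthase, -0.27), as did 2 of 48 mitotic genes (Anln, anillin, 0.31, and Ccnf, -0.25).

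In B4 and C17, with 1 array per line and medium, no member passed in any comparison. In R2i against PD, 0 of 37 were called, when 0.0364% of all genes were higher and 0.100% lower. In R2i against SB, which adds PD to SB, 0 of 37 were called, when 1.01% were higher and 1.15% lower. In PD against SB, 0 of 37 were called, when 2.76% were higher and 2.41% lower. At an unadjusted p below 0.05, limma gave 1, 2 and 3 of the 37 in these comparisons. They were Ccne2 in R2i against PD, Ccne2 and Cdk2 in R2i against SB, and Ccnd1, Cdkn2a and Birc5 in PD against SB. How many of all genes reached that level was not counted. Without B4 SB replicate 1, Rbl1 alone passed in PD against SB (0.69, adjusted p = 0.0497). The 3 comparisons share arrays among them.

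Of 4 targets of ERK signalling, 3 were lower in PD than in SB and none passed in R2i against PD. Dusp6, a feedback phosphatase of ERK, differed by -2.14 in PD against SB (adjusted p = 6.040e-04), Spry4, a feedback inhibitor, by -1.84 and the immediate early gene Egr1 by -4.63, while Etv5 differed by -0.10 (adjusted p = 0.816). Ccnd1 read 10.19 in PD, 9.91 in R2i and 9.86 in SB in B4, and 10.38, 10.36 and 9.99 in C17. PD was above SB in both lines (0.36, 95% interval 0.03 to 0.69, adjusted p = 0.229). Ccne2 read 5.94 in PD, 5.38 in R2i and 5.86 in SB in B4, and 7.16, 6.66 and 6.87 in C17. R2i was the lowest in both (-0.53 against PD, 95% interval -0.85 to -0.21, adjusted p = 0.253), and C17 read higher than B4 in every medium.

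Cdc20 read 12.44 in PD, 12.52 in R2i and 12.44 in SB in B4, and 12.32, 12.53 and 12.23 in C17. Its 95% intervals were -0.17 to 0.46 in R2i against PD, -0.13 to 0.51 in R2i against SB and -0.27 to 0.36 in PD against SB. Plk1 read 11.45, 11.76 and 11.69 in PD, R2i and SB in B4 and 11.01, 11.31 and 10.86 in C17. Ccnb1 read 10.77, 10.80 and 10.81 in that order in B4 and 10.91, 11.22 and 11.25 in C17. Every B4 array of Plk1 lay above every C17 array. Neither line was grown in 2i here, so the difference seen with 2i in B18 and B20 was not tested in B4 or C17.

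The proliferation marker Mki67 read 7.73, 7.41 and 7.55 in PD, R2i and SB in B4 and 7.12, 7.14 and 7.34 in C17. Its difference was -0.15 in R2i against PD (95% interval -0.49 to 0.19). Cdkn1a read 8.82, 8.58 and 8.81 in B4 and 8.50, 8.55 and 7.91 in C17, where SB was low. E2f1 read 9.35, 9.47 and 9.13 in B4 and 8.67, 8.80 and 8.62 in C17. Ccne1 read 7.89, 8.0 and 7.73 in B4 and 8.34, 8.19 and 8.68 in C17, with no order of media shared by the lines. Ccnd3 read 10.62, 10.84 and 10.49 in B4 and 10.32, 10.54 and 10.50 in C17. Ccna2 read 6.36, 6.25 and 6.28 in B4 and 5.84, 6.10 and 6.03 in C17. Ccnd2 was detected on 2 of the 6 arrays and read 4.44 to 5.26. Cdkn1b was detected on 1 of 6, and Cdk6, Myc, Mycn, Bub1, Ccnb2 and Cdc25b on none.

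**Figure D5:**
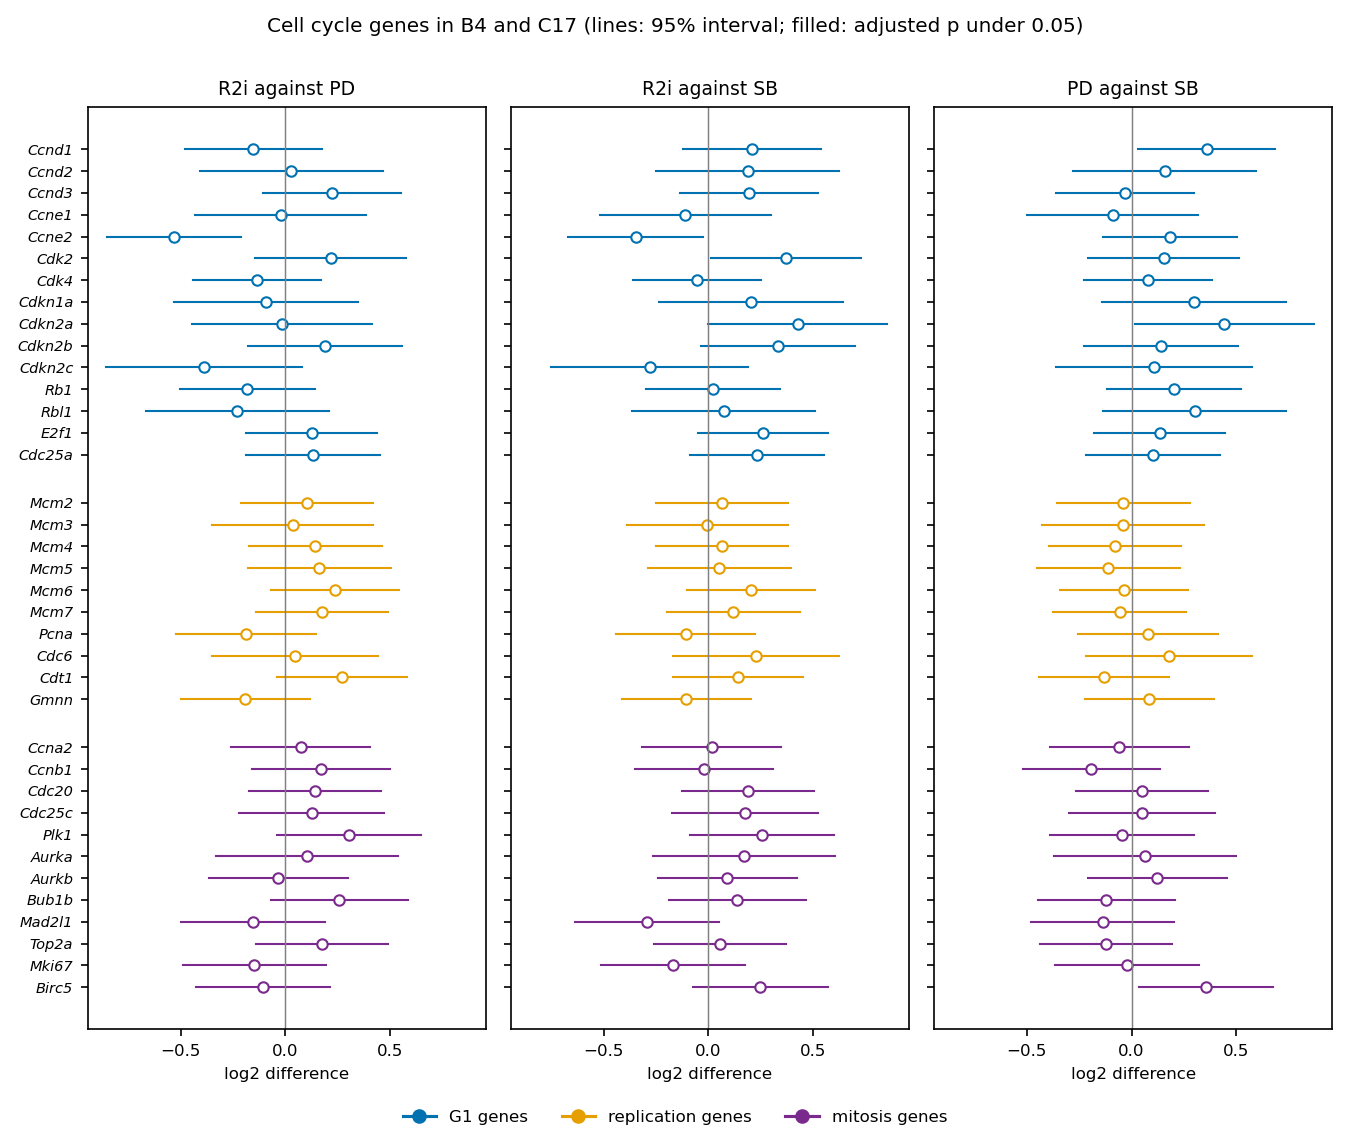
Log2 difference (horizontal axes, shared scale) of the 37 genes measured in B4 and C17 in each comparison of media, by phase; lines are 95% intervals and filled points would have an adjusted p below 0.05. No point is filled, and the interval of Ccne2 in R2i against PD runs from -0.85 to -0.21.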

How the data were processed

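ESC RNA was amplified, biotin-labelled and hybridised to 22 Illumina bead arrays of 2 designs, per the labels. GenomeStudio and limma are the tools listed in the submitters' processing notes, without versions. The deposited tables, per the file headers, give each probe's mean intensity without normalization and its detection p-value, besides control probes. The authors also deposited normalized log2 values, used here as an alternative only. They differed from the values computed here by a near constant shift of 4.15 to 4.16.

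Each array design was background-corrected and quantile-normalized on its own with neqc (limma 3.58.1 in R 4.3.3, offset 16). Probes with a detection p below 0.01 on at least 2 arrays were kept, and the probe with the highest mean stood for a gene. For B18 and B20, limma fitted 6 group means (10 residual degrees of freedom) and comparisons average both lines. For B4 and C17 it fitted medium and line (2 residual degrees of freedom). P-values were adjusted by Benjamini-Hochberg over all genes tested and the fits were tested on simulated data. Probes were named by current RefSeq symbols through gene ID or accession, and otherwise by the deposited file's symbol (1224 of 25697 probes for B18 and B20, 14651 of 45281 for B4 and C17). The precision is limited by the number of arrays.

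Members and lists were chosen with earlier results of these data known. Array values are given for members that passed with an absolute log2 difference of at least 0.5, and for the cyclins, Cdkn1a, Cdkn1b, Myc, Mycn, E2f1 and Mki67 where measured; other cell cycle genes are counted by phase, naming up to 3 per phase and comparison. A fit with replicate number as a block, other background, scaling, offset, filter and probe choices, an intensity trend, the compared media only and leaving out each array were alternatives. Fitting each other probe of a gene was added after seeing the data. Promoters are those of RefSeq in GRCm38.p6, matched by symbol.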

Additional observations from a re-analysis of the deposited data

Results flagged for a closer look

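For 2 of the 35 cell cycle genes the R2i against PD difference itself differed between the lines, close to the 4.26% of all genes. For Ccnd1 the difference between B20 and B18 was 0.60 (0.596856), from -0.69 in B18 and -0.09 in B20. It passed in all 25 alternatives (0.53 to 0.73), and its other probes gave 0.66 (adjusted p = 0.0167) and 0.93 (adjusted p = 0.0988). For Cdc25c it was -0.53 (-0.533358), from 0.48 in B18 and -0.06 in B20. It passed in 18 of 25 alternatives, and the second probe gave -0.47 (adjusted p = 0.159). Line and chip cannot be told apart in either.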

How the results depend on the processing

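The counts of cell cycle genes that passed stayed within 1.5 times under 130 of 138 alternatives other than leaving out an array. Exceptions were R2i against PD in B20 alone, with 2 called, which gave 4 with no background correction and 1 with median scaling or the mean of a gene's probes. R2i against 2i in B20 alone, with 8 called, gave 5 with no filter. The line difference in 2i against PD, called for 0 genes, was called for 1 (Rb1) with no background correction, offset 50, detection on every array or an intensity trend; the cause was not tested. Replicate numbers did not pair arrays: same-numbered arrays of a line had correlations of deviations from -0.12 to 0.13. With the replicate block, 4, 12 and 11 genes passed in R2i against PD, R2i against 2i and 2i against PD, where 4, 11 and 12 did without it.

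Leaving out each array in turn gave 2 to 6 genes in R2i against PD, 9 to 12 in R2i against 2i and 7 to 15 in 2i against PD. The 2 came without B18 PD replicate 2, the 7 without B18 2i replicate 2 or B20 2i replicate 1, and the 15 without B20 PD replicate 3. In B18 alone the ranges were 2 to 7, 6 to 10 and 4 to 7, and in B20 alone 0 to 5, 3 to 9 and 4 to 12. The line differences were called for 1 to 5, 0 to 2 and 0 to 2 genes. In B18 alone, median scaling left 329 of 1476 called genes higher in 2i against PD, where 661 of 1456 were, and 1058 of 1529 higher in R2i against 2i, where 882 of 1657 were. In B20 alone it left 260 of 856 higher in R2i against PD, where 407 of 852 were, and 485 of 1291 higher in R2i against 2i, where 696 of 1410 were. In B4 and C17 leaving out an array gave 0 in R2i against PD and R2i against SB, and 0 to 1 in PD against SB.

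No change that passed reversed under any alternative. With no background correction, which compresses dim signals, Rb1 in R2i against 2i shrank from 0.63 to 0.37, Cdc25c from 0.47 to 0.27 and Cdkn2b from 0.45 to 0.15, and all 3 still passed. For B4 and C17, with 2 residual degrees of freedom, 15 of 11003 genes passed in R2i against PD, 0 with no filter or no line term and 49 with an intensity trend.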

Other observations

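The third PD array of B20 read above the other PD arrays of that line for several genes of the G1 to S transition. Cdc6 read 8.67, 8.64 and 9.36 over the 3 arrays, Pcna 8.0, 7.93 and 8.49, Mcm3 9.34, 8.95 and 9.54, and Rb1 6.69, 6.69 and 7.08. For other such genes the third array read lowest, as for E2f1 (9.79, 9.77 and 9.73), Ccnd3 (10.64, 10.53 and 10.38) and Rbl1 (7.11, 7.20 and 7.06). Without that array, 15 rather than 12 of the 35 genes passed in 2i against PD. Cdc6 at 0.37 (adjusted p = 0.00684) and Mcm3 at 0.30 (adjusted p = 0.0321) were among those higher in 2i. The line difference in the R2i against PD effect was then also called for Cdc6 (0.89, adjusted p = 0.00303), Mcm3 (0.63, adjusted p = 0.0377) and Ccnd3 (-0.50, adjusted p = 0.0481).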
